A study of Mus musculus with 41 samples.

Results

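A set of 35 genes of ribosome biogenesis and of the transcription factor Myc and its targets was followed through gut immune cells of wild type female BALB/cJ mice. The members were listed by name, with earlier results of these data known. All 35 were present among the 23420 genes of the bulk table and among the 19221 genes of the single-cell matrix, and all 35 passed the filter on low counts in the bulk data. The bulk data came from KLRG1+ group 2 innate lymphoid cells (ILC2s), lymphocytes without antigen receptors that make IL-5 and IL-13, taken from the small intestine of 8-week-old mice. In all 4 groups, 250 sorted cells per culture were kept for 3 hours with 100 ng/ml of IL-7 and 100 ng/ml of IL-2. The base medium group (3 libraries) had nothing added, the IL-25 group (3) had IL-25 at 100 ng/ml, the CGRP group (4) had the neuropeptide α-CGRP at 0.4 μg/ml, and the combined group (3) had both. The single cells came from 10-week-old mice, either wild type controls or mice labelled food allergy, and were read from the lamina propria and from Peyer's patches, where gut B cells form germinal centres. The labels do not say if replicate libraries had different mice or cultures as their source, so a p-value reflects library-to-library spread that may be technical.

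Ribosomes are assembled in the nucleolus. RNA polymerase I transcribes a long ribosomal RNA precursor, small nucleolar ribonucleoproteins guide its chemical modification, and sets of assembly factors cut and fold it into the small 40S and the large 60S subunit together with ribosomal proteins. Myc binds the E-box motif in the promoters of many of these factors and is known to raise their transcription when lymphocytes are activated, as rapid growth and cytokine secretion need ribosomes. IL-25 is an epithelial cytokine that activates ILC2s, and α-CGRP, encoded by Calca, signals through a receptor that raises cyclic AMP.

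The bulk libraries held 6942739 to 21551863 expected counts, estimated read counts per gene. The ribosomal RNA precursor gene Rn45s took 57.5% and 59.0% of them in CGRP libraries 2 and 3 and 67.3% to 78.7% in the other 11 libraries. It was therefore left out of the library totals, and levels below are counts relative to the rest on the counts-per-million scale (CPM), scaled by edgeR's TMM factors. The Rn45s share was 72.8 ± 4.04% in base medium, 71.7 ± 3.85% with IL-25, 64.3 ± 7.12% with CGRP (n = 4) and 74.2 ± 4.01% with both (SD, n = 3 in the others). No difference in this share passed an exact permutation test. For CGRP against base medium the permutation test gave p = 0.2 (adjusted p = 0.5), and its lowest p was 0.143, for both agents against CGRP (adjusted p = 0.5). The ILC2 markers Gata3 (1179.8 ± 123 CPM in base medium, SD, n = 3), Klrg1, Il1rl1, Il17rb and Il7r were detected in all 13 libraries. Markers of the sorted cells also changed in the comparisons below: Gata3 was 2427 ± 304 CPM with CGRP (n = 4, log2 fold change 1.04, edgeR adjusted p = 0.0263), and Il17rb, a receptor subunit for IL-25, rose with CGRP within IL-25 (log2 fold change 1.07, edgeR adjusted p = 0.0333). Markers of B, T and myeloid cells summed to at most 86.3 CPM per list, apart from 258 CPM of myeloid and mast cell markers in CGRP library 2, of which Lyz2 made 229.1 CPM. The list for epithelium and stroma summed to 199.3 to 271 CPM in base medium, 296 to 407 CPM with IL-25, 144 to 198 CPM with CGRP and 221 to 245 CPM with both, so like the summed members below it was higher with IL-25 alone and lower with CGRP alone. Nearly all of it came from Epcam and Pecam1, while the keratin genes Krt8, Krt18 and Krt19 stood at or below 16.7 CPM in every library. The part of these cells in the results below was not tested. In bulk samples, fewer cells of a type and less RNA per cell cannot be told apart.

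In base medium, the members spanned a wide range of levels per length of exon. Length was that of all annotated exons of a gene merged, which can exceed that of 1 transcript, so the order depends on it. Npm1, a nucleolar chaperone, stood highest at 437 ± 85.0 CPM per kb and Ncl (nucleolin) next at 102 ± 14.1 CPM per kb. Before division by 2665 and 10188 exon bases, this pair stood at 1166 ± 226 and 1035 ± 144 CPM. Nop56, a core protein of box C/D ribonucleoproteins, and Dkc1, the pseudouridine synthase of H/ACA ribonucleoproteins, followed at 74.0 ± 14.6 and 54.0 ± 7.58 CPM per kb, and differed by little more than their spread. At the low end stood Polr1a, the largest subunit of RNA polymerase I, at 2.65 ± 0.405 CPM per kb, Utp20 at 4.003 ± 0.267 CPM per kb and Wdr12 at 4.24 ± 1.22 CPM per kb (SD, n = 3), of which the last pair overlapped. The exon length of Wdr12 was 11955 bases, and its level before division was 50.7 ± 14.5 CPM. The lowest count of a member in any library was 8 expected counts, for Nat10, and the highest was 10649, for Ncl.

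CGRP lowered genes at several steps of ribosome assembly. Against base medium, 6 of the 35 members fell and 0 rose (edgeR's quasi-likelihood test, Benjamini-Hochberg adjusted over all 12618 genes tested): Polr1b, Nop16, Rrp12, Nat10, Utp20 and Cad. Over all genes, 1.46% were called in this comparison, 1.06% higher and 0.396% lower. That is 134 higher of 184 called, and library totals without TMM factors gave 87 higher of 205 called. The log2 fold change of 33 of the 35 members was below 0, with a median of -0.75 over the members and 0.00073 over all genes. For 17 members the highest CGRP library lay below the lowest base medium library, where 5.45% of all genes showed this, and for none was it the reverse (6.99% of all genes). As the members were listed with results of these libraries known, their distance from all genes is a description only.

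Polr1b encodes the second largest subunit of RNA polymerase I (chromosome 2, 129100995 to 129126594, mm10). Its level was 59.1, 58.0 and 58.6 CPM in base medium libraries 1 to 3, 82.1, 58.2 and 64.2 CPM with IL-25, 17.8, 18.9, 9.52 and 14.99 CPM with CGRP, and 28.8, 18.8 and 29.8 CPM with both. All 7 libraries with CGRP thus lay below all 6 without it. CGRP against base medium gave a log2 fold change of -1.93 ± 0.323 (SE, edgeR adjusted p = 0.00155), and within IL-25 it was -1.39 ± 0.351, which missed the threshold (edgeR adjusted p = 0.0694). Of the other 2 listed subunits, the log2 fold changes for CGRP against base medium were -0.75 for Polr1a (edgeR adjusted p = 0.404) and 0.12 for Polr1c (edgeR adjusted p = 0.927), a subunit shared with RNA polymerase III.

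Rrp12, a factor in the maturation and export of pre-ribosomal particles (chromosome 19, 41862851 to 41896173, mm10), stood at 50.7, 48.6 and 52.2 CPM in base medium, at 82.4, 67.7 and 50.5 CPM with IL-25, at 18.8, 13.98, 13.8 and 7.98 CPM with CGRP, and at 10.6, 10.4 and 6.70 CPM with both. The groups with and without CGRP did not overlap. It fell in the 3 comparisons with CGRP in the treated arm only, with log2 fold changes of -1.88 ± 0.347 against base medium (edgeR adjusted p = 0.00388), -2.86 ± 0.408 within IL-25 (edgeR adjusted p = 0.000376) and -2.46 ± 0.404 for both agents against base medium (edgeR adjusted p = 0.00166).

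Nat10, the enzyme that acetylates cytidines of 18S ribosomal RNA (chromosome 2, 103721256 to 103761270, mm10), showed the same order of groups. Its level was 45.5, 61.1 and 38.8 CPM in base medium, 54.0, 57.3 and 89.9 CPM with IL-25, 11, 9.66, 19.7 and 7.01 CPM with CGRP, and 3.42, 5.56 and 16.4 CPM with both. No library with CGRP reached the lowest one without it. Its log2 fold change was -2.03 ± 0.439 against base medium (edgeR adjusted p = 0.0152), -2.97 ± 0.514 within IL-25 (edgeR adjusted p = 0.00317) and -2.50 ± 0.51 for both agents against base medium (edgeR adjusted p = 0.0132). The first of these was lost without base medium library 2 (edgeR adjusted p = 0.0940) or CGRP library 4 (edgeR adjusted p = 0.0596), and the last without base medium library 2, combined library 1 or combined library 2 (edgeR adjusted p = 0.0710, 0.104 and 0.0555).

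Cad carries out the first steps of pyrimidine synthesis (chromosome 5, 31054780 to 31078479, mm10). Its level was 64.5, 97.99 and 59.9 CPM in base medium, 83.7, 46.6 and 71.1 CPM with IL-25, 34.9, 29.6, 24.9 and 35.1 CPM with CGRP, and 14.8, 22.95 and 27.9 CPM with both, again without overlap between libraries with and without CGRP. Its log2 fold change was -1.25 ± 0.319 against base medium (edgeR adjusted p = 0.0472), -1.62 ± 0.359 within IL-25 (edgeR adjusted p = 0.029) and -1.76 ± 0.361 for both agents against base medium (edgeR adjusted p = 0.0136). The first call was fragile: it was lost when any 1 base medium library or any 1 CGRP library was left out (edgeR adjusted p = 0.0645 to 0.269), and when IL-25 library 1 or 3 or combined library 3 was (edgeR adjusted p = 0.0585 to 0.0644). The call within IL-25 was lost without IL-25 library 1 or 3 or any 1 combined library (edgeR adjusted p = 0.0533 to 0.200), and that for both agents without base medium library 2 or combined library 1 (edgeR adjusted p = 0.119 and 0.114).

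Utp20, a component of the small subunit processome that cleaves the precursor (chromosome 10, 88746607 to 88826804, mm10), fell in the CGRP group. It stood at 43.7, 40.5 and 38.3 CPM in base medium, at 46.8, 39.7 and 53.8 CPM with IL-25, at 4.96, 4.93, 21.2 and 4.59 CPM with CGRP, and at 19.4, 22.3 and 13.8 CPM with both. CGRP library 3 stood apart from the other 3 of its group. Against base medium its log2 fold change was -2.19 ± 0.46 (edgeR adjusted p = 0.0113) and -3.07 without that library (edgeR adjusted p = 0.000123). Within IL-25 it was -1.35 ± 0.497 (edgeR adjusted p = 0.271), although the 3 combined libraries lay below the 3 with IL-25.

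Nop16 and Wdr12, both 60S assembly factors, were each called in 1 comparison. Nop16 (chromosome 13, 54584185 to 54590090, mm10) stood at 87.2, 88.6 and 114 CPM in base medium, at 102, 152 and 124 CPM with IL-25, at 39.5, 27.3, 31.2 and 31.2 CPM with CGRP, and at 78.7, 41.0 and 29.4 CPM with both. Every library with CGRP lay below every one without. Its log2 fold change was -1.58 ± 0.309 against base medium (edgeR adjusted p = 0.00673), which became edgeR adjusted p = 0.0588 without base medium library 3 and 0.0682 without CGRP libraries 2 and 3, and -1.33 ± 0.337 within IL-25 (edgeR adjusted p = 0.0694). Wdr12 (chromosome 1, 60069785 to 60098645, mm10), which acts in a complex with Pes1 and Bop1, stood at 56.6, 34.2 and 61.4 CPM in base medium, at 88.8, 95.5 and 74.3 CPM with IL-25, at 16.3, 34.5, 16.2 and 24.7 CPM with CGRP, and at 19.97, 26.4 and 26.8 CPM with both. CGRP library 2 just overlapped the lowest base medium library, while the combined and the IL-25 libraries were well apart. Its change on the log2 scale was -1.15 ± 0.331 against base medium (edgeR adjusted p = 0.0876) and -1.82 ± 0.371 within IL-25 (edgeR adjusted p = 0.0148). The latter was lost without IL-25 library 1, combined library 1 or combined library 3 (edgeR adjusted p = 0.0658, 0.112 and 0.0583). Its partners did not pass: within IL-25 the log2 fold change was -0.67 for Bop1 (edgeR adjusted p = 0.438) and -0.23 for Pes1 (edgeR adjusted p = 0.845).

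**Figure D1:**
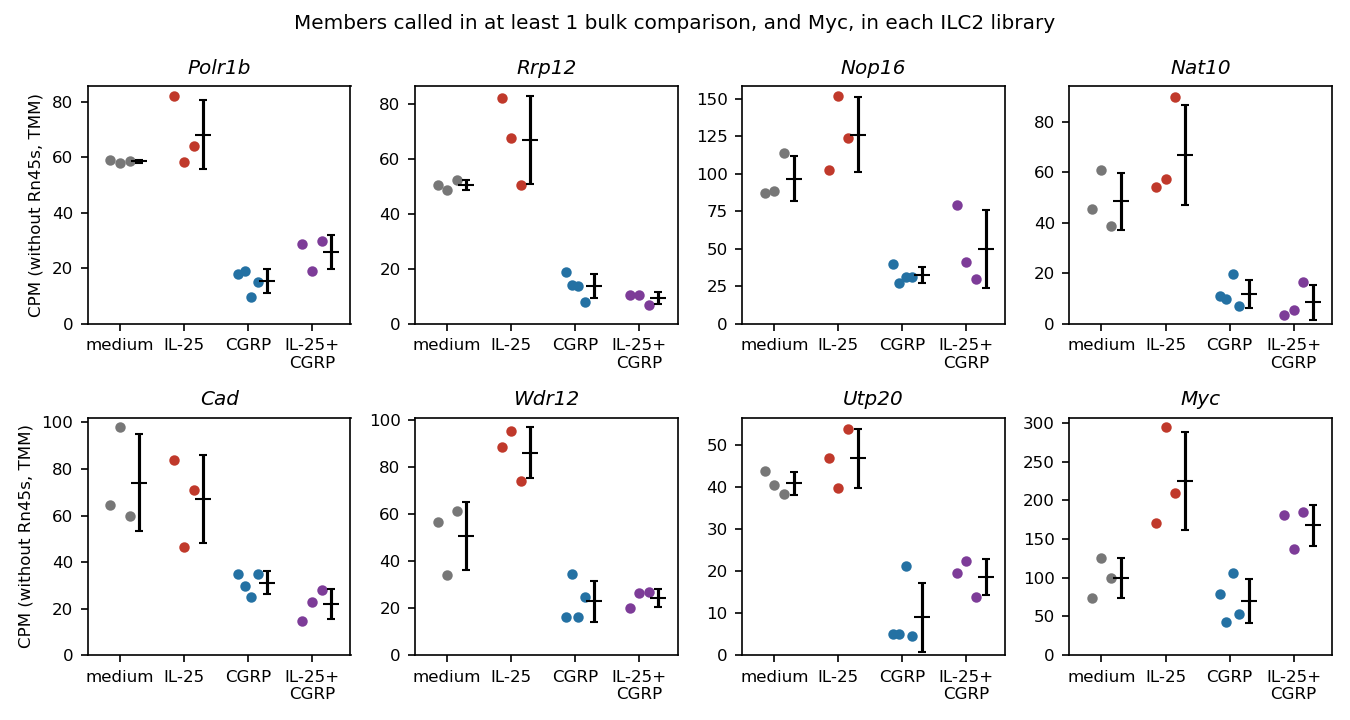
Level in CPM (vertical axis, from 0, without Rn45s) of the 7 members called in at least 1 bulk comparison and of Myc, with 1 point per library in each of the 4 culture groups and the mean ± SD beside them. In the 7 called members the libraries with CGRP sit below those without it, apart from Wdr12 in CGRP library 2, while Myc is at 137 to 185 CPM in the combined group.

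With IL-25 present in both arms, CGRP lowered 4 of the 35 members and raised none: Rrp12, Nat10, Cad and Wdr12. Over all genes 0.618% were called in this comparison, 0.491% higher and 0.127% lower (62 of 78 calls higher, or 46 of 122 without TMM factors). The log2 fold change was below 0 for 34 members, with a median of -0.76 against -0.0070 over all genes, and 25 members had no overlap between the combined and the IL-25 libraries, all below (8.77% of all genes, with 8.67% above). The count was 2 without IL-25 library 1 or without combined library 3, and 11 without CGRP library 2, which is in neither arm but in the fit. The 2 CGRP comparisons have no library in common. Across the 35 members their log2 fold changes had a Pearson correlation of 0.795, and 33 members were below 0 in both. The same correlation across all 12618 genes was 0.169, and genes are not independent replicates. Because the members were listed with results of these libraries known, this agreement is not independent support. For both agents against base medium 3 members fell, Rrp12, Nat10 and Cad, and none rose (0.856% of all genes called, 0.642% higher and 0.214% lower, with 81 of 108 calls higher, or 43 of 102 without TMM factors). The median was -0.45. Of the members, 15 lay wholly below base medium and 1, Myc, wholly above (8.44% and 9.87% of all genes), and only Rrp12 was left without base medium library 2 or without combined library 1.

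By role, log2 fold changes against base medium ranged from -2.03 to -0.10 over the 7 modification and ribonucleoprotein genes (median -0.86), where Nop56 (-0.10) and Nop58 (-0.23) of the box C/D core moved least. Over the 11 genes of the small subunit they ranged from -2.19 to 0.07 (median -0.68), with Noc4l at 0.07 and Utp15 at -0.13 at the upper end. Over the 7 genes of 60S assembly they ranged from -1.58 to -0.30 (median -0.70). The 5 abundant nucleolar proteins and regulators ranged from -1.14 for Mybbp1a to -0.38 for Npm1 (median -0.46), and none of them was called. Members at an unadjusted p under 0.05 but not called were 14 in this comparison, among them Gnl3 (-1.24, edgeR adjusted p = 0.0761), Tsr1 (-0.98, edgeR adjusted p = 0.0757), Mybbp1a (-1.14, edgeR adjusted p = 0.0575) and Nob1 (-0.89, edgeR adjusted p = 0.103), the nuclease that makes the 3′ end of 18S ribosomal RNA.

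**Figure D2:**
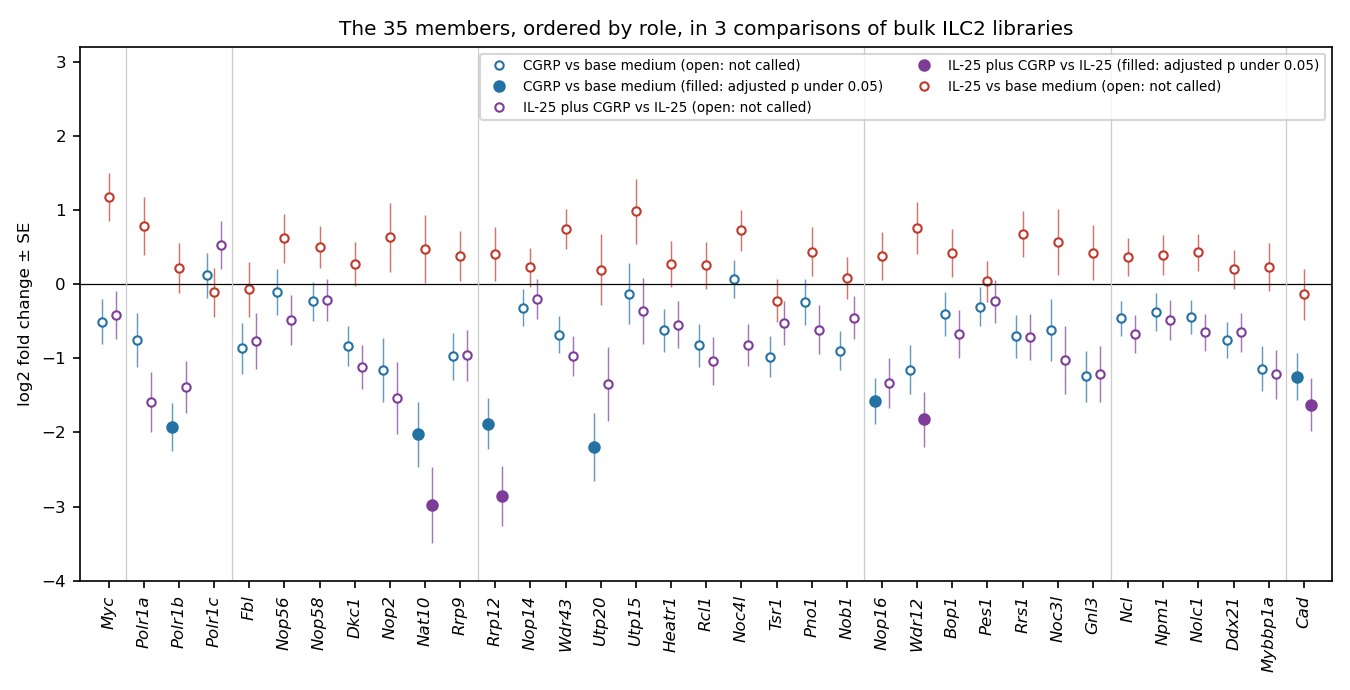
Log2 fold change ± SE (vertical axis) of each of the 35 members, ordered by role along the horizontal axis with grey lines between roles, for 3 comparisons; filled points have an edgeR adjusted p under 0.05. In the CGRP comparison without IL-25, 33 of 35 members lie below 0, in that within IL-25 34 do, and with IL-25 alone 31 lie above 0 with none called.

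Summed over the 35 members, levels were 5785 ± 343 CPM in base medium, 7664 ± 1420 CPM with IL-25, 3996 ± 313 CPM with CGRP (n = 4) and 4865 ± 640 CPM with both (SD, n = 3 in the others). The 4 CGRP libraries (3581 to 4340 CPM) lay below the 3 of base medium (5496 to 6165 CPM), and the 3 combined libraries (4232 to 5512 CPM) lay below the 3 with IL-25 (6710 to 9296 CPM). Without Npm1 and Ncl, the most abundant pair, the groups had the same order, with 3585 ± 327 CPM in base medium, 4790 ± 731 CPM with IL-25, 2345 ± 131 CPM with CGRP and 2923 ± 350 CPM with both.

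With IL-25 alone, no member passed the test. None of the 35 was called in either direction by edgeR (0.0713% of all genes called) or by DESeq2, with 6 members at an unadjusted p under 0.05: Myc, Wdr43, Wdr12, Utp15, Rrs1 and Noc4l. The log2 fold change was above 0 for 31 members with a median of 0.40, against 0.0089 over all genes. For 6 members every IL-25 library lay above every base medium library and for 1 below (5.18% and 4.2% of all genes). With CGRP in both arms, IL-25 gave a median of 0.24 with 29 members above 0 and none called by edgeR (0.111% of all genes called, 0.103% higher and 0.00793% lower), 4 at an unadjusted p under 0.05 and 1 called by DESeq2. There 3 members, Myc, Rrs1 and Nob1, lay wholly above the CGRP libraries and none below (4.83% and 3.36% of all genes). The difference between the effects of IL-25 with and without CGRP (interaction) was called for none of the 35 members nor for any gene by edgeR or DESeq2. Only Noc4l, with a log2 fold change of 0.73 for IL-25 alone and -0.17 with CGRP in both arms, had an unadjusted p under 0.05 there.

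Myc (chromosome 15, 61985391 to 61990374, mm10) was 1 of 6 members with a log2 fold change above 0 for both agents against base medium. Its log2 fold change there was 0.76 ± 0.327 (SE, edgeR adjusted p = 0.377), so it was not called. Its level was 73.5, 125 and 100.1 CPM in base medium, 171, 294 and 209 CPM with IL-25, 78.7, 42.2, 105.8 and 52.9 CPM with CGRP, and 181, 137 and 185 CPM with both. All 6 libraries with IL-25 lay above all 7 without it, whether or not CGRP was present. The log2 fold change of IL-25 was 1.18 ± 0.328 against base medium (edgeR adjusted p = 0.541) and 1.26 ± 0.303 with CGRP in both arms (edgeR adjusted p = 0.185), so neither was called, although DESeq2 called the second (adjusted p = 0.0204). Without CGRP library 3 edgeR called it as well (edgeR adjusted p = 0.0488). For CGRP the log2 fold change of Myc was -0.51 ± 0.303 against base medium (edgeR adjusted p = 0.537) and -0.42 ± 0.324 within IL-25 (edgeR adjusted p = 0.702), and ranges overlapped in both.

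Of 12 listed partners and rivals of Myc, 10 were tested and 1 rose with CGRP within IL-25 (0.491% of all genes were called higher). This was Mxd1, which competes with Myc for their shared partner Max, at 48.1 ± 12.7 CPM in base medium, 32.1 ± 12 CPM with IL-25, 102 ± 31.2 CPM with CGRP (n = 4) and 103 ± 26.2 CPM with both (SD, n = 3 in the others). Its log2 fold change within IL-25 was 1.67 ± 0.359 (edgeR adjusted p = 0.0213). None of the 10, so not Mxd1 either, was called for CGRP or for both agents against base medium (lowest edgeR adjusted p = 0.103 and 0.197).

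Other gene lists of growth were read in the same fits. Among 101 other ribosome biogenesis factors, the median log2 fold change for CGRP against base medium was -0.22. There 1 fell and none rose (0.396% and 1.06% of all genes). It was Noc2l, the partner of Noc3l, at 91.5 ± 38.7 CPM in base medium and 30.8 ± 11.8 CPM with CGRP (-1.57 ± 0.328, edgeR adjusted p = 0.0112). The 30 tested Myc-linked growth and metabolism genes had a median of -0.31 and 1 called lower, the histone chaperone Set (-1.09 ± 0.224, edgeR adjusted p = 0.0102). The members had been listed with results of these libraries known, and no difference between the lists was tested.

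Among 21 nucleotide synthesis genes the median was -0.07, and Gart, an enzyme of purine synthesis, fell (68.3 ± 9.38 to 24.2 ± 12.8 CPM, log2 fold change -1.50 ± 0.383, edgeR adjusted p = 0.0472). Dhodh, which acts after Cad in pyrimidine synthesis, fell for both agents against base medium (25.3 ± 2.63 to 3.51 ± 2.53 CPM, -2.84 ± 0.604, edgeR adjusted p = 0.0172). The combined libraries held 1480051 to 4224808 counts without Rn45s, so Dhodh rested on few counts there. Of 32 genes of RNA polymerase III and transfer RNA synthetases 1 fell, Vars, the valine synthetase (199 ± 48.9 CPM in base medium, 66.5 ± 24.3 CPM with CGRP, -1.58 ± 0.306, edgeR adjusted p = 0.00617), with a median of -0.09. Over all genes 0.396% were called lower for CGRP against base medium and 0.214% for both agents against base medium. None of 77 ribosomal protein genes and none of 24 cell cycle genes was called in any of the 6 comparisons, with medians of -0.04 and -0.01 for CGRP against base medium. Within IL-25 the medians were -0.40 for the other biogenesis factors, -0.54 for the Myc-linked genes and 0.14 for ribosomal proteins. Without TMM factors the median of all genes moved to -0.24 for CGRP against base medium and to -0.25 within IL-25. Each list moved with it, so the ribosomal protein median within IL-25 became -0.12, and the members then stood at -0.99 and -1.04.

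**Figure D3:**
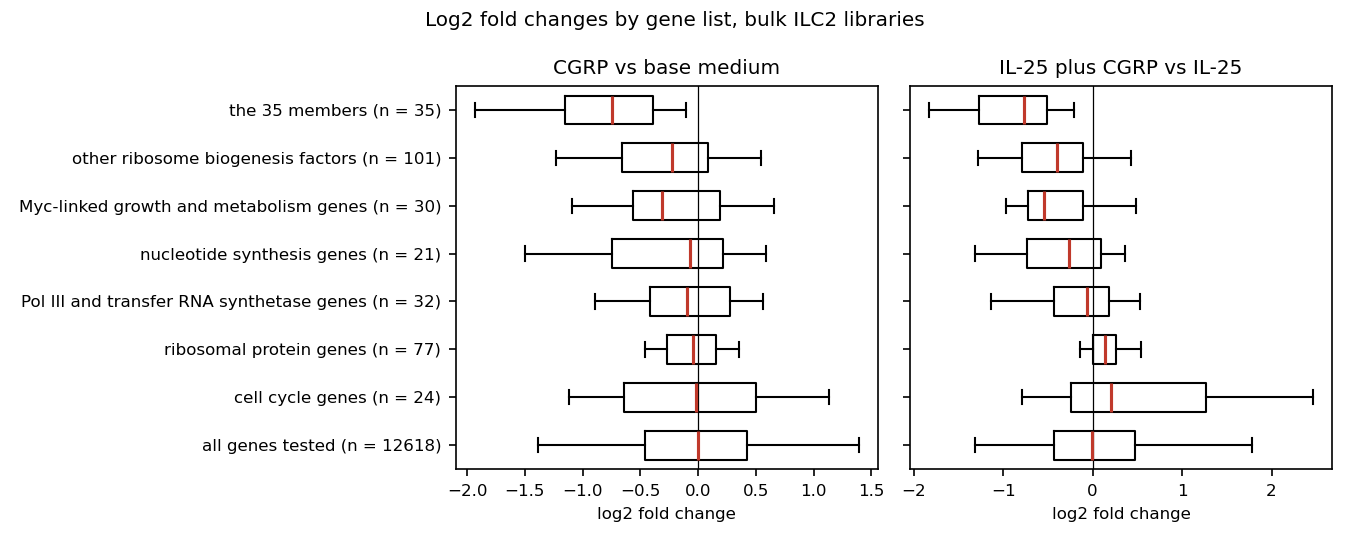
Log2 fold changes (horizontal axis) of the members, 6 other gene lists and all genes tested, in the 2 comparisons that add CGRP; boxes span the middle of each list with the median in red, and whiskers reach the 5th and 95th percentiles over genes. The members' medians are -0.75 and -0.76, those of the other ribosome biogenesis factors -0.22 and -0.40, and those of ribosomal proteins -0.04 and 0.14.

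Promoter sequence was available for 29 of the members in RefSeq's table for GRCm38.p6, the build of mm10, as windows from 250 bases before to 50 bases after the annotated start. Npm1, Myc, Bop1, Fbl, Rrs1 and Rrp12 had no entry. The E-box CACGTG, which reads the same on both strands and is the motif Myc binds, was in the windows of 7 of 29 members (24.1%), against 11.7% of 9334 genes tested in bulk and 8.09% of all 27025 genes of the table. They are shown, as 30 bases of the gene's strand with the motif in capitals, because the motif is the one sequence feature that the name of the gene set implies.
Nop2: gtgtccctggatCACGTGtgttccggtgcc
Wdr43: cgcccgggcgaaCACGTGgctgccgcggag
Utp20: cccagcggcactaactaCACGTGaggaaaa
Pes1: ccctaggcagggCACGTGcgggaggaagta
Mybbp1a: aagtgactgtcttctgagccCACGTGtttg
Tsr1: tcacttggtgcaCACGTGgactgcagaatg
Pno1: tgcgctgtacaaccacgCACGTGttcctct
They lie at chr6:125131811-125131840 (+) for Nop2, chr17:71616220-71616249 (+) for Wdr43, chr10:88826765-88826794 (-) for Utp20, chr11:3963965-3963994 (+) for Pes1, chr11:72441347-72441376 (+) for Mybbp1a, chr11:74898092-74898121 (+) for Tsr1 and chr11:17211540-17211569 (-) for Pno1. Only in Nop2 does the motif begin before the annotated start, at base -60. Of these 7, Utp20 was called lower with CGRP, and the log2 fold changes of the others for CGRP against base medium ran from -1.16 (Nop2) to -0.25 (Pno1).

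The full cyclic AMP response element TGACGTCA, searched because the receptor of CGRP raises cyclic AMP, was in 1 of the 29 windows, that of Noc4l (3.45%, against 3.6% of genes tested). Its shorter core TGACG, on either strand and so also inside the full element, was in 14 (48.3%, against 35% of genes tested and 23% of the table). Stretches of 100 bases upstream are given for the 5 members with an entry that were called lower with CGRP against base medium. The core was in that of Nat10, on the other strand as CGTCA, and at a pair of places in that of Cad, and was not in those of Polr1b, Nop16 and Utp20. Wdr12, called only within IL-25, is not printed. It had the core in its full window, but not in its 100 bases outside exons, from -245 to -146. The printed stretches show the core in capitals.
Nat10: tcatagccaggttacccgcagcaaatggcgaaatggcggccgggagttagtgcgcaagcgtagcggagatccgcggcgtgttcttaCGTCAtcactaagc
Cad: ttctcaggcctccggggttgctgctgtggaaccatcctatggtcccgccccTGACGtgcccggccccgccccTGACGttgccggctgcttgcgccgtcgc
Polr1b: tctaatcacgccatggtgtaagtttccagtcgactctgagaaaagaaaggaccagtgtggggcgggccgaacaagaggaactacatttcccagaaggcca
Nop16: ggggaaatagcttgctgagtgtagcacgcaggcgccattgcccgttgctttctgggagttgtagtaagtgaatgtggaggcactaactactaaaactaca
Utp20: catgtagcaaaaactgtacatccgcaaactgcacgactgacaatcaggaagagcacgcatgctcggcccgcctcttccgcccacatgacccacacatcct
In this order they lie at chr2:103761271-103761370 (-), chr5:31054680-31054779 (+), chr2:129100895-129100994 (+), chr13:54590091-54590190 (-) and chr10:88826815-88826914 (-), each 5′ to 3′ on the strand of its gene and outside any exon of GENCODE M21, ending at base -1 (-2 in Polr1b, -17 in Nop16). The core begins at base -14 in Nat10. A match is only a description of the sequence, and occupancy of these promoters was not analysed here.

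In the single cells, the members were read in ILC2-like, germinal centre B-like and plasmablast-like cells, classes rebuilt from marker genes by clustering 58067 cells of 27 libraries without use of the members. The ILC2-like class was 1 cluster of 2291 cells led by Calca, Il13, Hes1, Gata3 and Areg, of which 1130 came from the nonTB sort of the lamina propria, 220 from its IgDLow sort and 941 from Peyer's patches. The germinal centre B-like class held 3 clusters of 1776, 934 and 903 cells, of which the first and last had Rgs13 and Ms4a1 among their leading genes and the second was led by cell division genes. The plasmablast-like class was 1 cluster of 236 cells in which markers of plasma cells and of cell division both stood out, with 7 cells in Peyer's patches, too few to test. Of 55713 cell barcodes, 2180 (3.91%) occurred in more than 1 library. Levels are CPM, here over the UMIs of a class summed per library (lamina propria) or per run date and condition (Peyer's patches, at least 10 cells).

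Food allergy went with higher Ddx21 and Npm1 in lamina propria ILC2-like cells. There 9 of the 35 members passed the filter on low counts and 2 rose (edgeR fit of food allergy and run date, adjusted over 3572 genes), where 17.2% of all genes were called, 10.3% higher and 6.86% lower, so the members' share was not far from that of all genes. Ddx21, a helicase that acts on the ribosomal RNA precursor, stood at 74.3, 67.0 and 85.9 CPM in control libraries 1 to 3 and at 127.7, 116 and 110 CPM in food allergy libraries 1 to 3, without overlap. Its log2 fold change was 0.79 ± 0.214 (edgeR adjusted p = 0.0158), from 61 UMIs in controls and 120 in food allergy. On the first run date, libraries 1 and 2 of each condition, and on the second, library 3 of each, food allergy was the higher.

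Npm1 stood at 639, 584 and 589 CPM in the controls and at 674, 718 and 834 CPM in food allergy, again without overlap, with a log2 fold change of 0.43 ± 0.119 (edgeR adjusted p = 0.0177). Both calls were sensitive to single libraries. Neither was left without control library 2 (edgeR adjusted p = 0.107 for Ddx21 and 0.0922 for Npm1). Ddx21 was lost without control library 1 (edgeR adjusted p = 0.0606) or food allergy library 1 (edgeR adjusted p = 0.0718) and Npm1 without control library 3 (edgeR adjusted p = 0.0524) or food allergy library 2 (edgeR adjusted p = 0.0530), and DESeq2 did not call Ddx21 (adjusted p = 0.173). In the IgDLow sort, with 1 library per condition and so no test, Ddx21 was 80.6 CPM in the control and 133 CPM in food allergy, and Npm1 was 630 and 846 CPM. Summed over the 35 members, lamina propria ILC2-like cells held 1794 ± 69.2 CPM in controls and 1899 ± 29.9 CPM in food allergy (SD, n = 3 each). Npm1 alone went from 604 ± 30.6 to 742 ± 82.5 CPM, more than the sums did, so the other members together did not rise. The share of immunoglobulin UMIs was 0.49% to 0.78% in controls and 0.7% to 0.95% in food allergy, and the median depth was 1411 to 2171 and 1438 to 2077 UMIs per cell, and their part in these differences was not tested.

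In Peyer's patch ILC2-like cells none of the 13 members that passed the filter was called by edgeR (1.89% of 3747 genes called, 1.12% higher and 0.774% lower) or by DESeq2, with 2 at an unadjusted p under 0.05. These were Ddx21, at 77.2, 22.6, 103 and 93.1 CPM in controls of run dates 1, 2, 4 and 5 and 95.5, 120, 162 and 114 CPM in food allergy of dates 2 to 5 (log2 fold change 0.49 ± 0.211, edgeR adjusted p = 0.394), and Wdr43 (0.76 ± 0.33, edgeR adjusted p = 0.40). On each of the 3 dates with both conditions Ddx21 was higher in food allergy, on date 2 from 1 and 4 UMIs. The median depth was 3001 to 3313 UMIs per cell in controls and 3446 to 4577 in food allergy. Myc rested on few molecules, with 42 UMIs in controls and 112 in food allergy and a log2 fold change of 0.75 ± 0.349 (edgeR adjusted p = 0.447).

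Germinal centre B-like cells of Peyer's patches showed no member called between food allergy and control. Of 25 members that passed the filter, 0 were called by edgeR or DESeq2 and none had an unadjusted p under 0.05, and edgeR called none of the 5548 genes (0%). Log2 fold changes of the 25 ran from -0.46 for Myc to 0.24 for Mybbp1a. In lamina propria plasmablast-like cells 8 members passed the filter and none was called by edgeR (0.132% of 2265 genes called, 0.0442% higher and 0.0883% lower) or DESeq2 nor had an unadjusted p under 0.05, with log2 fold changes from -0.41 for Gnl3 to 0.14 for Nop58. This class held 40 control and 119 food allergy cells, and the size of difference that could be detected was not measured.

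The level of the set was also read by cell class. Because classes were named from the same cells, these values are a description with no test. The summed members were 1847 ± 74.9 CPM in lamina propria ILC2-like cells (SD, n = 6 libraries), 2369 ± 246 in those of Peyer's patches (n = 8), 2569 ± 341 in naive B-like cells (n = 10) and 3095 ± 410 in germinal centre B-like cells of Peyer's patches (n = 9). Plasma-like cells of the lamina propria stood at 416 ± 65.8 and plasmablast-like cells at 1722 ± 325 CPM (n = 6 each). Immunoglobulin genes took 61.0% to 72.1% of UMIs in the plasma-like and 24.0% to 41.5% in the plasmablast-like cells. Without them the levels were 1276 ± 71.7 and 2608 ± 527 CPM so plasmablast-like cells then lay in the range of the B-like classes.

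**Figure D4:**
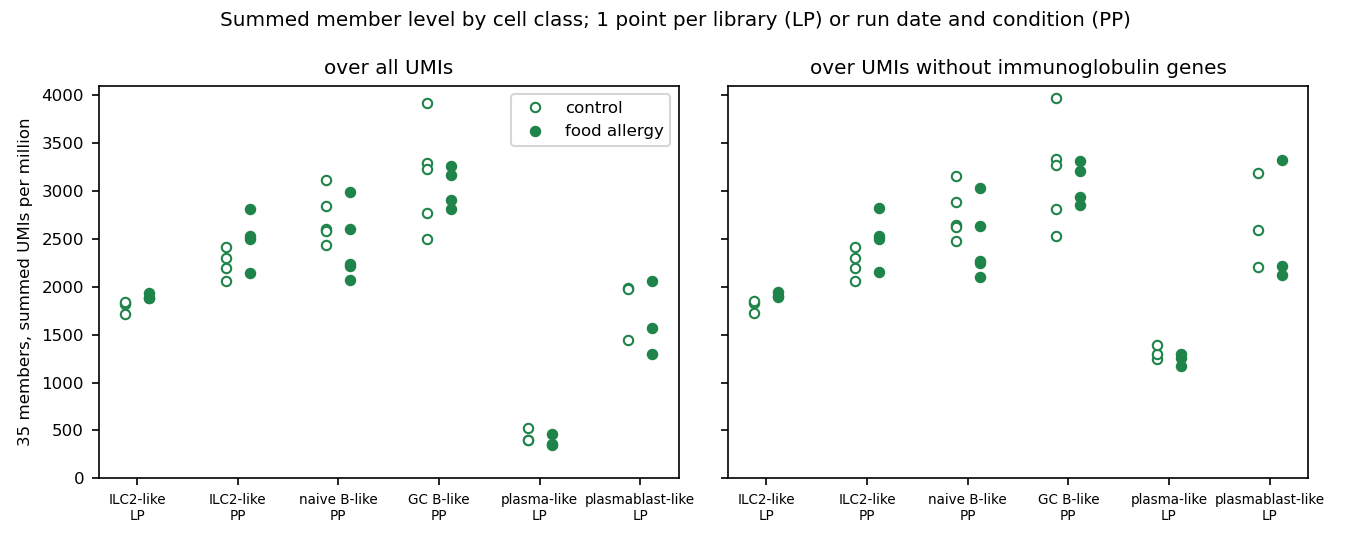
Level of the 35 members in CPM (vertical axis, from 0) in 6 cell classes, over all UMIs on the left and over UMIs without immunoglobulin genes on the right; open points are controls and filled points food allergy. Plasma-like cells lie lowest in both panels, at 349.9 to 526.2 and at 1172 to 1390 CPM, and the germinal centre B-like cells reach 3918 CPM on the left.

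Germinal centre B cells are B cells that divide fast and are selected on the affinity of their receptor, and their members did not all lie above those of naive B-like cells. Over 9 matched run dates and conditions, 18 of 35 members had the higher mean in germinal centre B-like cells, and the median ratio was 1.03, against 1.07 over 11568 genes. Npm1 (1334 ± 206 against 901 ± 176 CPM) and Bop1 (39.4 ± 9.92 against 25.8 ± 6.95 CPM) were higher in 9 of 9 pairs. Myc (26.0 ± 15.9 against 140.2 ± 72.8 CPM), Rrp9 (21.1 ± 4.82 against 38.3 ± 14.2 CPM), a protein of the U3 ribonucleoprotein, and Gnl3 (41.6 ± 10.4 against 70.6 ± 31.1 CPM), or nucleostemin, were lower in 9 of 9. Such complete separation was seen upward in 2 of 35 members and downward in 3, and over all genes in 12.7% and 9.77%. Each pair counted equally, though the germinal centre B-like cells per pair numbered 15 to 1489, and 4 run dates gave a pair in each condition. Myc in these cells rested on 1 UMI each in the control of date 4 and the food allergy unit of date 5. Median depth was 5269 to 9293 UMIs per germinal centre B-like cell and 2194 to 3244 per naive B-like cell, and its part in these ratios was not tested. Myc is known to be confined to a small selected share of germinal centre B cells. Without the cluster led by cell division genes, the class summed to 2763 ± 225 CPM with Npm1 at 1150 ± 111 and Myc at 21.3 ± 17.9 CPM (n = 8).

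Plasmablasts are the dividing precursors of plasma cells. Over UMIs without immunoglobulin genes, 10 of 35 members were higher in plasmablast-like than in plasma-like cells in all 6 libraries and none was lower in all 6 (9.53% and 20.2% of 10268 genes). The median ratio was 1.31, against 0.851 over all genes, and 24 of 35 members had the higher mean in plasmablast-like cells. All genes means, here and for the germinal centre comparison, those with at least 20 UMIs over both classes together. The plasmablast-like class held 159 cells with 2318784 UMIs and the plasma-like class 3296 cells with 34146066 UMIs. Rare genes thus weigh on the values over all genes, and the part of this imbalance was not tested. Over all UMIs 20 of 35 were higher in all 6 and none lower (29.8% and 4.596% of all genes). There the median ratio was 2.80, against 1.72 over all genes. The 10 were Nop56, Nop58, Fbl, Ncl, Npm1, Nolc1, Wdr43, Wdr12, Ddx21 and Dkc1, where Fbl (fibrillarin) is the methylase of the box C/D particles. Nop58 stood at 133 ± 51.3 against 40.9 ± 6.29 CPM, Npm1 at 992 ± 242 against 368 ± 30.4 CPM and Wdr12 at 35.2 ± 22.2 against 10.8 ± 2.82 CPM. Several members lowered by CGRP in cultured ILC2s were too rare here to compare, with 3 UMIs of Rrp12, 4 of Polr1b, 8 of Utp20 and 10 of Nat10 in all plasmablast-like cells of the nonTB sort.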

How the data were processed

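The bulk libraries were made with Smart-seq2 and the single-cell libraries with 10x Genomics reagents, per the labels' protocols. The deposited bulk table holds expected counts per gene, and the deposited single-cell matrix holds UMI counts per cell. Per the submitters' processing notes the authors used bcl2fastq, Bowtie2, RSEM and Cell Ranger with the build mm10, and tool versions are not given in the sources used here.

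Expected counts were rounded, Rn45s was left out, and genes with low counts were dropped by filterByExpr. edgeR 4.0.16 in R 4.3.3 then fitted the means of the 4 groups over all 13 libraries with TMM factors and tested 6 contrasts by quasi-likelihood, with Benjamini-Hochberg adjustment over 12618 genes and a threshold of 0.05. SEs were derived from the F statistic. Smart-seq2 reads carry no UMIs, so counts are not independent molecules.

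Single cells were clustered with leidenalg 0.10.2 without the member genes and named from marker lists. A doublet score marked 1170 cells (2.01%), which were kept, and leaving them out was an alternative. Summed UMI counts per class were tested with edgeR, with run date as a term, in units of at least 10 cells. 1 of the 28 single-cell samples was not analysed here.

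The members and all gene lists were chosen with earlier results of these data known. Values by library are given for the members called in any bulk contrast and for Myc, and of other lists at most the 3 called genes with the largest change per contrast are named. DESeq2 1.42.0, scaling without TMM factors, no filter, Rn45s kept, a replicate block and each library left out were alternatives. Calls of single genes in the other lists were not checked with them. The edgeR fit was run on simulated data for CGRP against base medium and for single-cell classes with enough counts. DESeq2 and the other bulk contrasts were not.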

Additional observations from a re-analysis of the deposited data

Results flagged for a closer look

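Of 43 groups of libraries or cell units examined for a value far from the rest, 1 had such a value, where chance alone gives about 1 in 20. In CGRP library 3, Utp20 stood at 21.21 CPM, and in the other 3 CGRP libraries at 4.59 to 4.96 CPM. All 4 lay below the base medium libraries.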

How the results depend on the processing

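In the comparisons of CGRP with base medium, within IL-25 and of both agents with base medium, no setting called a member higher, and the members' median log2 fold change was below 0 in each setting (-0.99 to -0.68, -1.04 to -0.67 and -0.75 to -0.31). For CGRP against base medium, 6 members were called, 13 with DESeq2, 15 without TMM factors and 4 to 8 with 1 library left out. Within IL-25, 4 were called, 10 with DESeq2, 10 without the filter, 11 without TMM factors, 12 without CGRP libraries 2 and 3 (chosen after seeing the data), and 2 to 11 with 1 library left out. For both agents against base medium, 3 were called, 5 without TMM factors and 1 to 3 with 1 library left out. For both agents against CGRP, 0 were called, 1 with DESeq2 or without the filter, and 0 to 1 with 1 library left out. In lamina propria ILC2-like cells 2 were called, 1 with DESeq2 or without the run date term, and 0 to 2 with 1 library left out. Levels without immunoglobulin genes (chosen after seeing the data) were 1276.1 and 1437.1 CPM in plasma-like cells of the lamina propria and Peyer's patches and 2608.1 in plasmablast-like cells. The cause of these changes was not tested. Replicate numbers showed no clear pairing of the libraries. Same-numbered pairs correlated at -0.131 to 0.115 and other pairs at -0.235 to 0.189, and 5 of 12 libraries correlated best with their own number. These values cannot exclude a shared source of same-numbered libraries, which the labels do not describe. With the replicate block 4, 3 and 3 members were called for CGRP against base medium, within IL-25 and for both against base medium, and 2 in lamina propria ILC2-like cells.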
